A study of Mus musculus with 20 samples.

Results

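Gene expression of 10 endothelial genes was followed in bulk RNA-Sequencing of liver, of colorectal liver metastases (CRLM) and of cells sorted from them. The genes were taken by name as known markers: Stab2, Lyve1, Clec4g, Oit3 and Dnase1l3 as 5 genes of the liver sinusoidal endothelium, and Pecam1, Cdh5, Plvap, Cd34 and Vwf as 5 genes of other vessels. All 10 were found among the 54532 genes of each deposited count table, by gene name in the tissue table and by Ensembl identifier in the table of sorted cells, and all 10 passed the filter on low counts in every fit.

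All mice were WT C57BL/6. The normal liver (con, 2 libraries) was taken at day 0 after normal saline, and every other sample came from mice given 1000000 MC38 cells, a C57BL/6 colon adenocarcinoma line that was injected into the spleen and reached the liver through the portal vein. Low-content tumors (Lt, 2 libraries) and the medium-content group Mt3 (2 libraries) were taken at day 9, the medium-content groups Mt2 and Mt1 (2 libraries each) at day 11, and high-content tumors (Ht, 3 libraries) and a remote tumor-free liver (L-con, 1 library) at day 12. From the medium-content tumors of day 11 (Mt2), F4/80+ cells and CD11b+ cells (3 libraries each) were extracted with antibody-coated microbeads, F4/80 being a macrophage protein and CD11b a protein of most myeloid cells. The labels give male mice for the tissue samples, whereas the Methods give female mice.

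The tissue libraries held 16032085 to 18246623 counted reads and the sorted-cell libraries 17785496 to 20548370. Levels below are TMM-scaled read counts relative to the library total (CPM), and 3 reads correspond to 0.112 to 0.28 CPM on this scale, depending on the library. Ht_1 and Ht_3 are described in the Methods as made identical, so they were counted as 1 sample (n = 2 for Ht). Their counts nevertheless differed by more than sampling noise, which gives a chi-square per gene near 1: it was 27.6 between them, against 26.7 from Ht_1 to Ht_2 and 12.1 from Ht_2 to Ht_3. With Ht as 3 libraries the number of the 10 genes called was the same, 7 from con to Ht and 6 from Lt to Ht. The Methods give 2 livers for each tissue group but L-con, while for the sorted cells no source used here says whether the libraries came from separate mice, so those tests may measure only technical spread. Nothing states that the counting used strand. In bulk tissue, fewer cells of a type and less RNA per cell cannot be told apart. The 12 hepatocyte genes that were listed summed to 191054 to 224154 CPM in con and to 3270 to 5278 CPM in Ht, and the 7 fibroblast genes to 275 to 378 CPM in con and 6289 to 7949 CPM in Ht. The 7 macrophage genes summed to 13605 to 14898 CPM in F4/80+ cells and 11945 to 19377 CPM in CD11b+ cells, and the 8 neutrophil genes to 165 to 748 CPM and 1055 to 5377 CPM.

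Liver sinusoids are capillaries whose endothelium is perforated by open fenestrae, lacks a continuous basement membrane and clears hyaluronan, collagen fragments and immune complexes from the blood through scavenger receptors. Capillaries of most other tissues have a closed wall and carry CD34, a sialomucin that the healthy sinusoidal wall largely lacks. When sinusoids lose their fenestrae, in fibrosis or around tumors, the change is called capillarization.

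RefSeq promoters (GRCm38.p6) were at hand for 3 of the 10 genes, and are shown because 2 of them were lower in Ht and Cd34 was higher. Each run is the 250 bases before the RefSeq start site, 5′ to 3′ on the strand of the gene. The deposited gene limits reach further upstream for Stab2, where 83 of these bases lie inside the gene, and for Cd34, where 2 do. Capitals mark CAGGAA or its reverse complement TTCCTG, a core that many ETS factors of endothelial genes bind. Stab2 is at chr10:87007943-87008192 on the minus strand, Clec4g at chr8:3720652-3720901 on the minus strand and Cd34 at chr1:194938571-194938820 on the plus strand.
Stab2: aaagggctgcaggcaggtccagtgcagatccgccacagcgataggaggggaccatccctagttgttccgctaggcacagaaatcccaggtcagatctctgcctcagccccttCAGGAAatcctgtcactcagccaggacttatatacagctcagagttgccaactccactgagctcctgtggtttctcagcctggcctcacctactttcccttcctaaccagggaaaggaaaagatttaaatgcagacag
Clec4g: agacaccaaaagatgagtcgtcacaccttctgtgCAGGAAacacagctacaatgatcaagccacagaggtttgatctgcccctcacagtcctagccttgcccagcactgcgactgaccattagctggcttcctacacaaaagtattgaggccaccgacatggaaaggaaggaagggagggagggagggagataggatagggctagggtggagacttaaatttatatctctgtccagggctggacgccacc
Cd34: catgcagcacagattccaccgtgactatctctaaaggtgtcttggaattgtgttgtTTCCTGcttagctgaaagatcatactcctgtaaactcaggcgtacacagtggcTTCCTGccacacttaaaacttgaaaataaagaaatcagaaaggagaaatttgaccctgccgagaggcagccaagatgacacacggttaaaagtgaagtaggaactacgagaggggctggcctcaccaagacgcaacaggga
CAGGAA stood once in Stab2, 138 bases before the start site, and once in Clec4g, 216 bases before it, both on the strand of the gene. In Cd34 it stood on the other strand, at 194 and 141 bases before the start. This motif was found on either strand in 25.7% of all 32851 promoters of this length. CCGGAA, another ETS core (12% of promoters), and GATAA, the core bound by GATA factors such as the sinusoidal regulator GATA4 (22.6% of promoters), were searched on both strands too, and neither stands in these 3 windows. A match is a description of these letters only.

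The sinusoidal genes were highest in con, L-con, Lt and Mt3, lower in part of the day 11 tumors and lowest in Ht. Stab2 (ENSMUSG00000035459, GRCm38 chromosome 10 from 86841198 to 87008025), a scavenger receptor that takes up hyaluronan, stood at 114 and 99.6 CPM in con, while L-con had 106 CPM, Lt 81.6 and 75.2, and Mt3 86.1 and 74.7. Mt2 had 77 and 27.5 CPM, Mt1 60 and 29, and Ht 6.11, 11.9 and 8.31. All 3 Ht libraries were below every other tissue library, and the replicates of Mt2 and Mt1 lay far apart. An antisense gene, Gm16268, shares 141 of the 8757 exon bases of Stab2.

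Clec4g (ENSMUSG00000074491, chromosome 8 from 3707064 to 3720651), a C-type lectin of sinusoidal endothelium, had 73.5 and 81.6 CPM in the con libraries, 115 in L-con, and 149 and 84 in the pair from Lt. Mt3 had 77.5 and 102 CPM, Mt2 70.1 and 16.9, Mt1 40.5 and 16.4, and Ht 2.57, 4.19 and 1.8. Both Lt libraries were above both con libraries, and Ht lay below all others. The antisense gene Gm16553 shares 146 of its 2462 exon bases.

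Oit3 (ENSMUSG00000009654, chromosome 10 from 59422958 to 59441778), which encodes a zona pellucida domain protein used as a sinusoidal marker, was at 90 and 74.4 CPM in con, with L-con at 52.9, Lt at 45.3 and 44, and Mt3 at 50.4 and 41.3 CPM. Mt2 had 30.5 and 15.6 CPM of it, Mt1 33.2 and 14, and Ht 3.22, 7.33 and 5.84. Unlike Clec4g, Oit3 was already below con in L-con and Lt, with no overlap between samples.

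Dnase1l3 (ENSMUSG00000025279, chromosome 14 from 7964533 to 7994573), a secreted nuclease that digests chromatin in the circulation and is also made by macrophages and dendritic cells, was at 95.5 and 103 CPM in con, with L-con at 95.7, Lt at 73.4 and 62.4, and Mt3 at 81.7 and 70.2 CPM. Mt2 followed with 67.6 and 20.9 CPM, Mt1 with 42 and 22.1, and Ht with 3.06, 7.55 and 3.53. The order of the groups was that of Stab2.

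Lyve1 (ENSMUSG00000030787, chromosome 7 from 110850607 to 110863239), a hyaluronan receptor of sinusoidal and lymphatic endothelium and of some tissue macrophages, differed from the other 4. In con it was at 120 CPM in the first library (1284 reads) and 25.5 in the second (290 reads). L-con had 27.3 CPM, Lt 25 and 32, Mt3 20.3 and 29.5, Mt2 16.7 and 15.9, Mt1 27.5 and 14.6, and Ht 10.6, 9.87 and 14.1. The second con library lay within the range of Lt and Mt3, so the con mean of 72.8 ± 66.8 CPM (SD, n = 2) rested on the first library.

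Of the other vessel genes, Cdh5 and Vwf overlapped between con and Ht, Pecam1 and Plvap were lowest in Ht, and Cd34 was highest there. Cdh5 (ENSMUSG00000031871, chromosome 8 from 104101625 to 104144511), the VE-cadherin of endothelial junctions, was at 65.4 and 58 CPM in con, with L-con at 71.9, Lt at 63.1 and 62.4, and Mt3 at 64.2 and 70.6 CPM. Mt2 was at 77.8 and 54.4 CPM, Mt1 at 90.3 and 73.9, and Ht at 50.1, 61.1 and 69.3. The con and Ht samples overlapped, with means of 61.7 ± 5.23 and 60.4 ± 0.993 CPM (SD, n = 2 each).

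Pecam1 (ENSMUSG00000020717, chromosome 11 from 106654217 to 106750628), the adhesion protein CD31 that leukocytes and platelets carry as well, had 61.5 and 43.4 CPM in con, and Ht had 32.5, 37.7 and 37.8. Between them L-con had 56.7 CPM, Lt 57.9 and 45.6, Mt3 44.7 and 58.6, Mt2 45.6 and 37.9, and Mt1 46.7 and 45.5. The Ht libraries were the lowest, by less than the gap between the 2 con libraries.

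Plvap (ENSMUSG00000034845, chromosome 8 from 71497765 to 71511752), which forms the diaphragms of fenestrae and caveolae, was at 85.4 and 76.1 CPM in con, with L-con at 104, Lt at 90.3 and 74.4, and Mt3 at 82.4 and 78.2 CPM. Mt2 was at 86.3 and 56.8 CPM, Mt1 at 118 and 60.4, and Ht at 29.7, 43.1 and 43.6, with every Ht library below the rest.

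Vwf (ENSMUSG00000001930, chromosome 6 from 125546774 to 125686679), the von Willebrand factor stored in endothelial granules and in platelets, had no call in the 3 tissue comparisons. Con had 15.8 and 18.2 CPM, L-con 28.1, Lt 26.5 and 23.3, Mt3 20.9 and 22.5, Mt2 24.3 and 11.4, Mt1 24.3 and 19.9, and Ht 13.9, 15.7 and 20.7. Both Lt libraries and L-con were above both con libraries, the Mt2 pair lay far apart, and the con and Ht ranges overlapped.

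Cd34 (ENSMUSG00000016494, chromosome 1 from 194938819 to 194961279), which marks capillary endothelium, blood progenitors and some fibroblasts, ran the other way. Con had 6.08 and 1.76 CPM, L-con 12.7, Lt 56.2 and 100, and Mt3 72.1 and 91.9. Mt2 reached 114 and 199 CPM, Mt1 117 and 188, and Ht 230, 206 and 229. The 3 Ht libraries were the highest, and the remote liver stood above both con libraries and below every tumor library. Col3a1, a fibroblast collagen gene, had 59.7 and 34.4 CPM in con, 250 CPM in the remote liver and 4817, 4650 and 5810 CPM in the Ht libraries, and its part in the Cd34 values was not tested. The antisense gene Gm16897 shares 148 of the 7290 exon bases of Cd34.

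**Figure D1:**
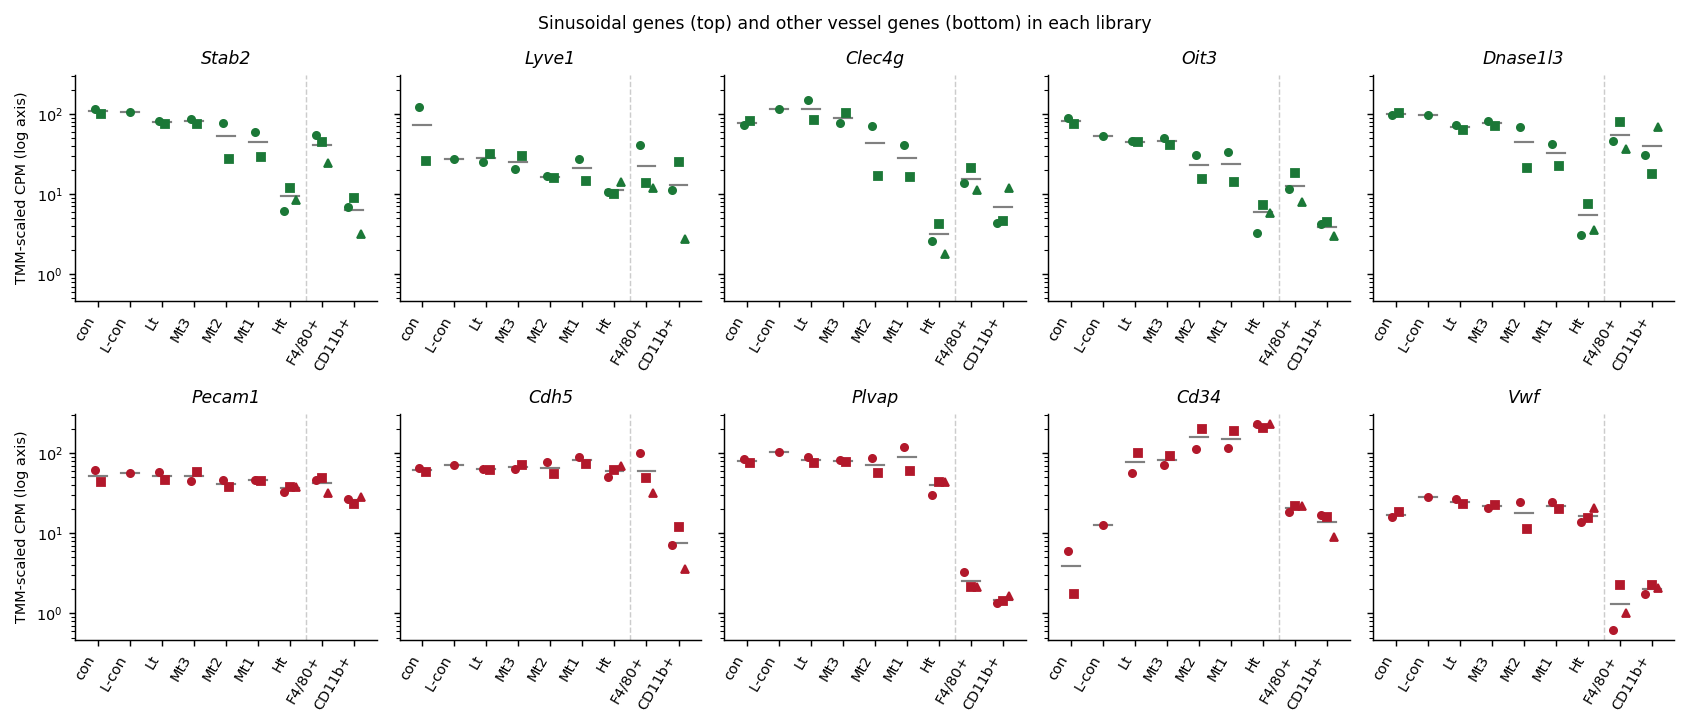
TMM-scaled CPM (log axis) of the 5 sinusoidal genes (green, top) and the 5 other vessel genes (red, bottom) in each library of the 7 tissue groups and, right of the dashed line, the 2 sorted populations. Circles, squares and triangles are replicates 1, 2 and 3, and the grey line is the group mean, with Ht_1 and Ht_3 counted as 1 sample. The sinusoidal panels drop in Ht (Stab2 from 107 in con to 9.53 CPM), Cdh5 stays between 50.1 and 90.3 CPM across the tissue, and Cd34 climbs from 3.92 to 218 CPM.

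Per kilobase of exon (FPKM, from the deposited gene lengths), the order of the genes turned over between liver and tumor. In con the mean levels were 40.6 FPKM for Plvap, 31.5 for Clec4g, 29.5 for Oit3, 24.9 for Lyve1, 19.2 for Dnase1l3, 14.7 for Cdh5, 12.2 for Stab2, 8.42 for Pecam1, 1.06 for Vwf and 0.538 for Cd34. Neighbours from Clec4g to Lyve1 did not differ beyond their spread (SD 2.35, 3.96 and 22.9 FPKM), nor did Vwf and Cd34 by much more than theirs (0.107 and 0.419 FPKM). In Ht the order began with Cd34 at 29.8 FPKM, Plvap at 20.1, Cdh5 at 14.4 and Pecam1 at 5.85, and the 5 sinusoidal genes followed between 3.81 FPKM (Lyve1) and 1.05 FPKM (Dnase1l3), with Vwf at 1.03 FPKM last. No order among Clec4g, Stab2, Dnase1l3 and Vwf in Ht stood beyond their SDs of 0.575, 0.375, 0.585 and 0.0676 FPKM. Cd34 thus went from the lowest to the highest of the 10.

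From con to Lt, the tumors of lowest content, 1 of the 10 genes passed as changed in edgeR's quasi-likelihood test (Benjamini-Hochberg adjusted p of at most 0.05 and at least a 2-fold change). Cd34 was 20.1-fold higher (log2 fold change 4.33, SE 0.58, adjusted p = 0.00229 in edgeR's quasi-likelihood test), a log2 value that ran from 3.67 without the second con library to 5.47 without the first. Among all 17187 genes tested, 12.4% were called higher and 0.256% lower, so 0 of the 5 sinusoidal genes called lower is near what all genes gave. Without regard to the test, 3 of the 5 sinusoidal genes were lower in both Lt libraries than in both con libraries (26.7% of all genes), and 1 sinusoidal and 2 other vessel genes were higher (37.2%). Oit3 was at -0.88 (SE 0.42, edgeR adjusted p = 0.207), Dnase1l3 at -0.54 (SE 0.53, edgeR adjusted p = 0.516) and Stab2 at -0.44 (SE 0.47, edgeR adjusted p = 0.547). Clec4g stood at 0.59 (SE 0.63, edgeR adjusted p = 0.554), with both Lt libraries higher. Lyve1 was at -1.35 (edgeR adjusted p = 0.171), and at 0.16 without the first con library. The log2 fold changes of Pecam1, Cdh5 and Plvap lay between -0.02 and 0.03, and that of Vwf was 0.55 (edgeR adjusted p = 0.264). At an unadjusted p under 0.05 there were 2 of the 10 (28.6% of all genes), Cd34 and Lyve1, and DESeq2 called 1, Cd34, where it called 14.7% of all genes. Of the 20 other pan-endothelial genes, 2 were called higher, the receptor Cd93 (log2 fold change 1.53) and the adhesion gene Mcam (1.02).

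From con to Ht, all 5 sinusoidal genes were called lower, where 24.1% of the tested genes were, and the other vessel genes divided. Oit3 was 14.1-fold lower (log2 fold change -3.82, SE 0.47, adjusted p = 2.30e-04 in edgeR's quasi-likelihood test). Dnase1l3 was 18.7-fold lower (-4.22, SE 0.61, edgeR adjusted p = 4.33e-04), Stab2 11.4-fold (-3.51, SE 0.52, edgeR adjusted p = 4.79e-04) and Clec4g 25-fold (-4.64, SE 0.75, edgeR adjusted p = 6.74e-04). Lyve1 was 6.61-fold lower (-2.73, SE 0.62, edgeR adjusted p = 0.00401), a value that ran from -1.21 without the first con library to -3.45 without the second. Cd34 was 54.9-fold higher (5.78, SE 0.62, edgeR adjusted p = 1.39e-04), where 25.8% of all genes were called higher, and its log2 value was 5.14 without the second con library and 6.93 without the first. Plvap was 2.05-fold lower (-1.03, SE 0.31, edgeR adjusted p = 0.0164), just past the fold threshold, and kept its call in 8 of 14 alternative settings. Pecam1 stood at -0.54 (SE 0.22, edgeR adjusted p = 0.0495), under the fold threshold. Without Ht_2, Dnase1l3 was at -4.92. Cdh5 was at -0.05 (SE 0.19, edgeR adjusted p = 0.843) and Vwf at -0.06 (SE 0.30, edgeR adjusted p = 0.879).

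Scaling sets the zero of these values. The TMM factors were 0.69 and 0.71 for the con samples and 1.60 and 1.58 for the Ht samples, and scaling by total counts moved the median of all genes from con to Ht from 0.09 to 1.28 and the share of higher among called genes from 51.7% to 79.7%. With total counts, Cdh5 (1.14, edgeR adjusted p = 5.47e-04) and Vwf (1.13, edgeR adjusted p = 0.00225) were called higher, Pecam1 and Plvap turned positive (0.65 and 0.15) without a call, and 8 of the 10 genes were called, where 64.4% of all genes were. The 5 sinusoidal genes were among them and still lower, by smaller values: Stab2 was at -2.32, Clec4g at -3.46, Oit3 at -2.63, Dnase1l3 at -3.04 and Lyve1 at -1.52. Relative to the median of all genes the positions were the same under both scalings, at -3.60 and -3.59 for Stab2, -0.14 and -0.13 for Cdh5, -1.13 and -1.12 for Plvap, and 5.69 and 5.70 for Cd34.

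Between Lt and Ht, 4 of the 5 sinusoidal genes were called lower (20.2% of all genes). The Methods describe the samples as metastases with liver tissue beside them. The 12 hepatocyte genes summed to 98848 to 176584 CPM in Lt and 3270 to 5278 CPM in Ht. Day (9 and 12) and tumor content cannot be told apart here. With total-count scaling, 74.9% of called genes were higher, against 36.6%. Clec4g was then at -4.30, Dnase1l3 at -2.78, Stab2 at -2.17 and Oit3 at -2.04. This comparison shares Ht with the one from con. Clec4g was 37.5-fold lower (log2 fold change -5.23, SE 0.77, adjusted p = 0.00303 in edgeR's quasi-likelihood test), Dnase1l3 12.8-fold (-3.68, or -4.38 without Ht_2, SE 0.60, edgeR adjusted p = 0.00319), Stab2 8.35-fold (-3.06, SE 0.51, edgeR adjusted p = 0.00334) and Oit3 7.66-fold (-2.94, SE 0.46, edgeR adjusted p = 0.00311). Lyve1 was at -1.37 (SE 0.60, edgeR adjusted p = 0.0879), with all Ht libraries below both Lt libraries. Cd34 was 2.74-fold higher (1.45, SE 0.50, edgeR adjusted p = 0.0406, against 11.7% of all genes called higher). That call was lost without the first Lt library (1.11, edgeR adjusted p = 0.229), without Ht_2 (1.53, edgeR adjusted p = 0.099) and without the sample made of Ht_1 and Ht_3 (1.37, edgeR adjusted p = 0.13), each of which left 4 of the 10 genes called, where 16.3%, 20.6% and 18.5% of all genes were, against 31.9% with every library. Plvap was at -1.06 (SE 0.31, edgeR adjusted p = 0.0225) and kept its call in 6 of 14 alternative settings, DESeq2 not among them. Pecam1 (-0.52, edgeR adjusted p = 0.0741), Vwf (-0.61, edgeR adjusted p = 0.124) and Cdh5 (-0.07, edgeR adjusted p = 0.78) were not called.

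**Figure D2:**
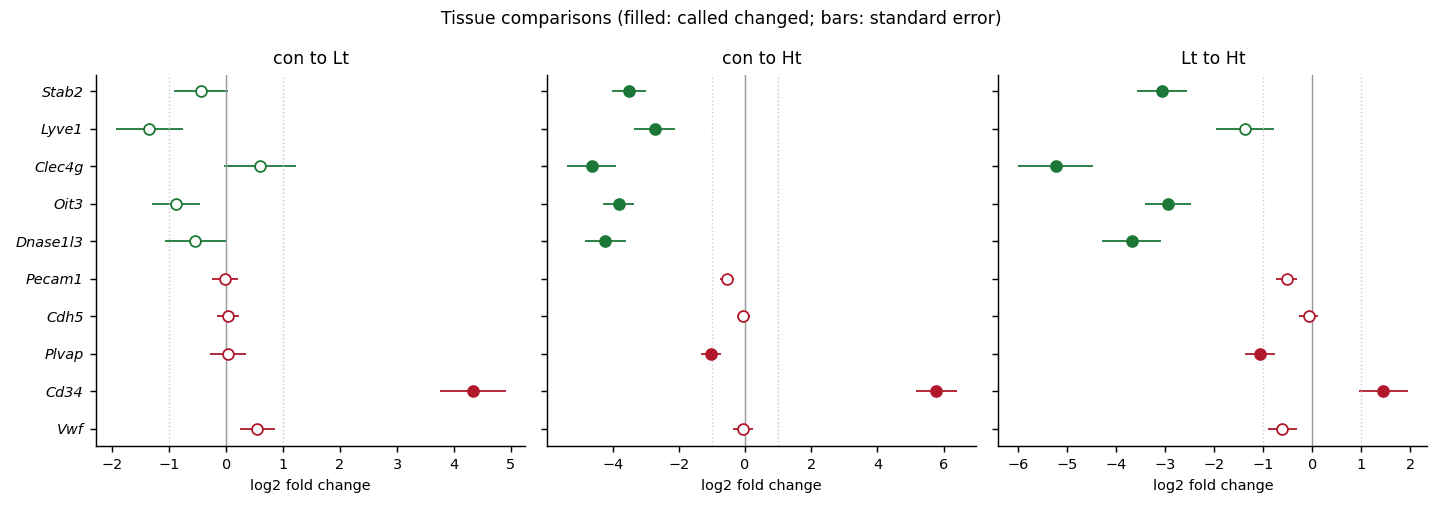
Log2 fold changes with standard errors of the 10 genes from con to Lt, con to Ht and Lt to Ht (edgeR, TMM scaling). Filled points were called changed, dotted lines mark a 2-fold change, green genes are sinusoidal and red genes are other vessel genes. In the middle panel the 5 green points lie between -2.73 and -4.64, while Cdh5 and Vwf sit at -0.05 and -0.06 and Cd34 at 5.78.

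The balance of the 2 gene groups was summarized per library as the mean log2(CPM + 1) of the sinusoidal genes minus that of the other vessel genes, without a test. Con had 1.55 and 1.47, L-con 0.67, Lt 0.21 and 0.03, and Mt3 0.13 and -0.01. Mt2 had -0.43 and -1.32, Mt1 -0.77 and -1.64, and Ht -3.03, -2.56 and -3.12. Part of the drop from con to L-con and Lt was the rise of Cd34. Without Cd34 the values were 0.99 and 0.66 in con, 0.25 in L-con, 0.22 to 0.24 in Lt, and in Ht still -2.29 ± 0.33 (SD, n = 2).

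**Figure D3:**
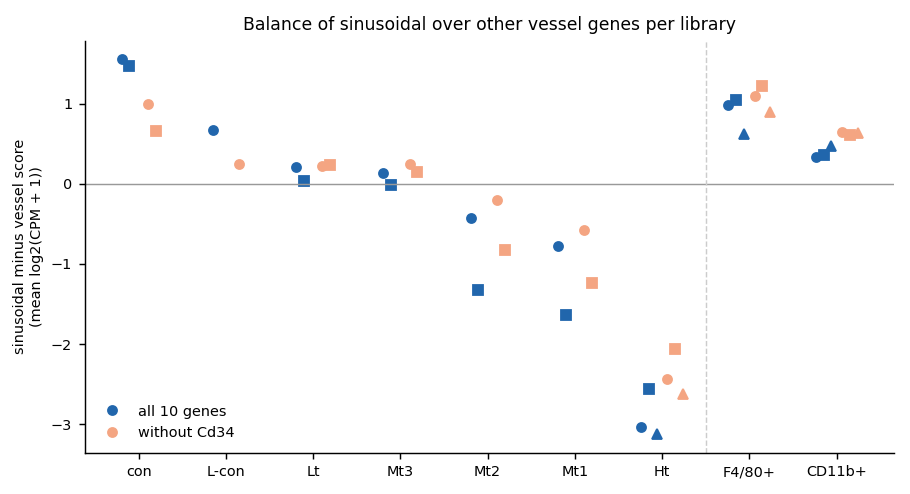
Sinusoidal minus vessel score (difference of mean log2(CPM + 1)) in each library, with all 10 genes (blue) and without Cd34 (orange). Circles, squares and triangles are replicates 1, 2 and 3, and the dashed line divides tissue from sorted cells. Con lies at 1.55 and 1.47, Lt and Mt3 near 0, the second replicates of Mt2 and Mt1 at -1.32 and -1.64, and Ht lowest.

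Reads of 1 gene per read of another were compared within a library, where scaling has no part. Stab2 had 1.74 and 1.72 reads per Cdh5 read in con, with L-con at 1.47, Lt at 1.29 and 1.2, and Mt3 at 1.34 and 1.06. Mt2 was at 0.991 and 0.505, Mt1 at 0.664 and 0.393, and Ht at 0.122, 0.194 and 0.12. Within the sinusoidal group the pairs differed. Stab2 had between 1.23 and 1.78 reads per read of Gpr182, a sinusoidal receptor, in all 14 tissue libraries, while Stab2 itself ranged from 6.11 to 114 CPM. Clec4g per Gpr182 read ran from 0.295 in an Ht library to 2.24 in an Lt library, Dnase1l3 from 0.577 to 1.44 and Oit3 from 0.511 to 1.1. Lyve1 varied too, with 0.217 to 0.577 reads per Stab2 read in all tissue libraries but the first con library (1.06) and Ht (1.74, 0.833 and 1.69). Cdh5 per Plvap read ran from 0.689 to 1.22 outside Ht and was 1.69, 1.42 and 1.59 in Ht.

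The sinusoidal genes fell together with the hepatocyte genes. The second libraries of Mt2 and Mt1, the low ones above, had hepatocyte scores (mean log2(CPM + 1) of 12 genes) of 9.82 and 9.63, against 12.10 and 11.48 in the first libraries. Con was at 13.21 and 12.93, Lt at 12.63 and 12.05, and Ht at 6.75, 7.34 and 7.01. The 12 hepatocyte genes were all called lower from con to Ht, with a median log2 fold change of -6.10, against -3.82 for the sinusoidal genes, -0.06 for the other vessel genes and 0.09 for all genes. How far the hepatocyte share of a sample went with the sinusoidal values was not tested.

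**Figure D4:**
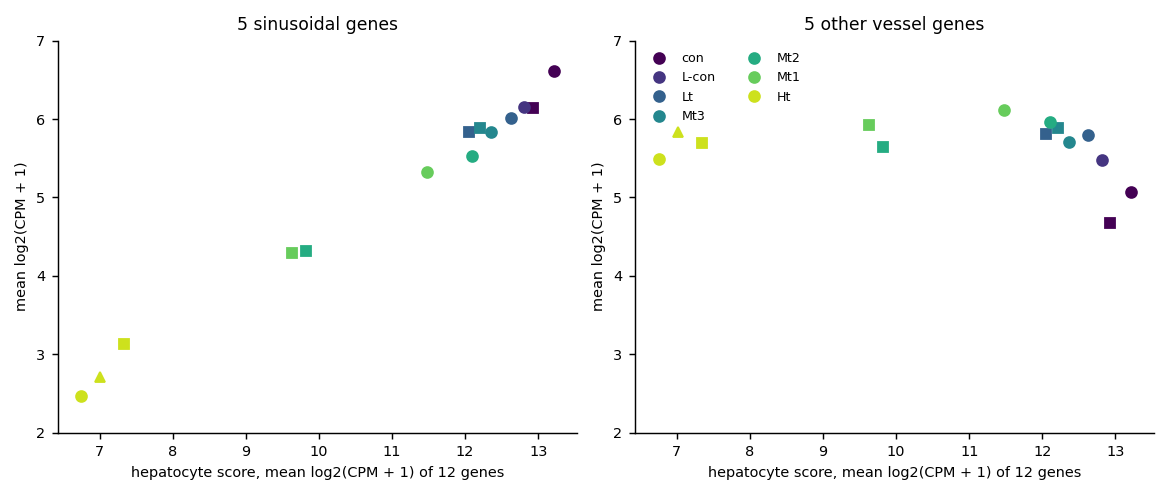
Mean log2(CPM + 1) of the 5 sinusoidal genes (left) and the 5 other vessel genes (right) against the mean log2(CPM + 1) of 12 hepatocyte genes in the 14 tissue libraries. Colours are the groups, and circles, squares and triangles are replicates 1, 2 and 3. On the left the libraries run from Ht (sinusoidal mean 2.86) up to con (6.38), with the second libraries of Mt2 and Mt1 between. On the right con (4.87) lies lowest. Of the 5 vessel genes, only Cd34 had a higher mean in Ht than in con (218 against 3.92 CPM).

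Over the 13 tissue samples, the genes most like the mean sinusoidal profile were Cdo1 (cysteine dioxygenase), Nr1h3 (the nuclear receptor LXR alpha), Serpind1 (heparin cofactor), F9 (a clotting factor) and Upb1 (an enzyme of pyrimidine breakdown), with Pearson r of 0.996 to 0.997 on log2(CPM + 1) among 12945 genes. Most of these are known as hepatocyte genes. Of the members, Stab2 (r = 0.994), Oit3 and Dnase1l3 (0.988 each) and Clec4g (0.970) followed this profile closely, and Lyve1 less so (0.755). Plvap (0.867) and Pecam1 (0.808) followed it more than Vwf (0.478) and Cdh5 (0.239), and Cd34 ran against it (-0.691). The mean profile of the other vessel genes was led by Cd34 (r = 0.854), with Cdh5 at 0.527, Vwf at 0.346, Plvap at 0.033 and Pecam1 at -0.083. The genes most like this profile were Abcg1, Slc15a3, Tgm2, Batf3 and Cd300ld (0.935 to 0.948). These are descriptions over samples that share the tumor content and the scaling.

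Other endothelial genes, listed by hand, were described in the same way. Of 15 other sinusoidal genes, 10 were called lower and 1 higher from con to Ht, with a median of -2.30, where 24.1% of all tested genes were lower and 25.8% higher. The trafficking gene Ehd3 was at -4.40, Bmp6, the ligand that sets hepcidin, at -3.78 and Gpr182 at -3.72. Stab1 was the gene called higher (1.71), while Maf (0.91), Mrc1 (0.90), Fcgr2b (0.19) and Bmp2 (-0.45) were not called. Stab1 was at 878 to 2722 CPM in the sorted cells, against 111 to 416 CPM in the tissue. The part of macrophages in this list was not tested. Of 20 other pan-endothelial genes, 7 were called lower and 2 higher (median -0.68), Cd93 at 3.11, the phosphatase Ptprb at -2.92 and the angiopoietin receptor Tek at -2.31. Of 8 genes of sprouting endothelium, 3 were called higher and 1 lower (median 0.82), with the peptide gene Apln at 7.34, the placental growth factor gene Pgf at 4.01 and the netrin receptor gene Unc5b at 3.33. Dll4, a Notch ligand, was the gene called lower (-1.33), and Angpt2 (0.89), Esm1 (0.75), Nid2 (-0.21) and Kcne3 (-0.24) were not called. Whether the reads of these sprouting genes came from endothelium, tumor cells or other cells of the tissue was not tested. Of 9 genes of arteries and veins, 2 were higher and 1 lower (median -0.26), near the shares over all genes. Among 4 lymphatic genes, Pdpn was at 6.84 and Prox1, also a hepatocyte factor, at -5.47.

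Apln, which was picked after its values were seen, had the largest change of the 8 sprouting genes. Con had 0.374 and 0.176 CPM of it, L-con 0.882, Lt 6.25 and 11.4, and Ht 47.1, 45.4 and 45. From con to Lt it was already called higher (log2 fold change 4.99, SE 0.65, adjusted p = 0.00205 in edgeR's quasi-likelihood test).

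Reads of all 10 genes were also found in the cells sorted from the medium-content tumors of day 11. Which cells these reads came from was not tested. Between CD11b+ and F4/80+ cells, 0 of the 10 genes were called by edgeR's quasi-likelihood test, in a comparison that called 0.0771% of 14263 genes. At an unadjusted p under 0.05 there were 5 of the 10, against 10.5% of all genes, and DESeq2 called 3 (Stab2, Oit3 and Cdh5) where it called 2.1% of all genes. The third CD11b+ library stood apart, with a chi-square per gene of 136 and 178 from the first and second, against 17.3 between those. Without it, edgeR called 2 of the 10 genes, where 0.927% of all genes were called. Stab2 was at 54.8, 44.4 and 24.1 CPM in F4/80+ cells and at 6.84, 8.83 and 3.2 in CD11b+ cells (log2 fold change 2.65, SE 0.42, edgeR adjusted p = 0.0652). Cdh5 was at 100, 48.9 and 31.5 CPM and at 7.18, 12 and 3.56 (2.93, SE 0.54, edgeR adjusted p = 0.0918). Oit3 was at 11.4, 18.2 and 7.97 CPM and at 4.22, 4.54 and 2.96 (1.62, SE 0.34, edgeR adjusted p = 0.124). The samples of these 3 genes did not overlap, nor did those of Pecam1 (46.9, 49.6 and 32.1 against 26.7, 23.1 and 28.5 CPM), Plvap (3.3, 2.11 and 2.12 against 1.36, 1.43 and 1.66) and Cd34 (18.7, 22.1 and 21.8 against 17.1, 16 and 8.89). That made 6 of 10 genes higher without overlap in F4/80+ cells, against 15.1% of all genes.

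The other 4 genes overlapped. Clec4g was at 13.9, 20.9 and 11.1 CPM in F4/80+ cells and 4.32, 4.59 and 11.9 in CD11b+ cells (edgeR adjusted p = 0.464). Lyve1 was at 40.5, 13.8 and 12 CPM against 11.3, 24.8 and 2.73 (edgeR adjusted p = 0.663). Dnase1l3 was at 46.2, 78.1 and 36.8 CPM against 31.1, 18 and 69.1 (edgeR adjusted p = 0.718). The third CD11b+ library was the highest of its group for Dnase1l3, Clec4g, Pecam1 and Plvap and the lowest for Stab2, Lyve1, Oit3, Cdh5 and Cd34. Vwf was low in both populations (12 to 53 reads), at 0.619, 2.26 and 1.01 CPM against 1.75, 2.29 and 2.07 (edgeR adjusted p = 0.551).

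Set against the Mt2 tumors they came from, the F4/80+ cells had 3 vessel genes called below the tissue level here and in all 13 alternative settings, while 5 other genes were not called and changed sign with the library left out. Plvap was 28.5-fold lower (log2 fold change -4.83, SE 0.30, adjusted p = 6.76e-08 in edgeR's quasi-likelihood test), Vwf 13.6-fold (-3.77, SE 0.39, edgeR adjusted p = 2.17e-06) and Cd34 7.51-fold (-2.91, SE 0.40, edgeR adjusted p = 2.96e-05). Cdh5 stood at -0.13 (SE 0.43, edgeR adjusted p = 0.808), Pecam1 at 0.04 (SE 0.22, edgeR adjusted p = 0.896), Stab2 at -0.34 (SE 0.46, edgeR adjusted p = 0.548), Dnase1l3 at 0.28 (SE 0.56, edgeR adjusted p = 0.686) and Lyve1 at 0.44 (SE 0.74, edgeR adjusted p = 0.636). Leaving out 1 library at a time, Stab2 ran from -0.86 (without the second Mt2 library) to 0.58 (without the first) and Dnase1l3 from -0.29 to 1.36 in the same way, while Cdh5 ran from -0.71 to 0.22, Lyve1 from -0.34 to 0.78 and Pecam1 from -0.05 to 0.25. Vwf ran from -4.39 without the second F4/80+ library to -3.12 without the first Mt2 library. Oit3 was at -0.88 (SE 0.39, edgeR adjusted p = 0.0694), and Clec4g was called lower at -1.50 (SE 0.56, edgeR adjusted p = 0.0356). That call was lost in 5 of 13 alternative settings, among them without the first Mt2 library (-0.15, edgeR adjusted p = 0.864), without the first F4/80+ library (-1.44, edgeR adjusted p = 0.0877) and without the third (-1.27, edgeR adjusted p = 0.115). In all, 1 of 5 sinusoidal and 3 of 5 other vessel genes were called lower, where 25.2% of 18407 genes were. The tissue and the sorted cells stand in separate tables, so cell sorting, sex and any difference in preparation cannot be told apart.

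In CD11b+ cells 7 of the 10 genes were called lower than in Mt2, against 26.3% of all genes. This comparison shares Mt2 with the last. Plvap was 48.3-fold lower (log2 fold change -5.59), Cd34 11.2-fold (-3.48), Vwf 8.68-fold (-3.12), Cdh5 8.64-fold (-3.11), Stab2 8.23-fold (-3.04), Clec4g 6.3-fold (-2.66) and Oit3 5.85-fold (-2.55), with edgeR adjusted p from 2.12e-08 to 0.00133. Without the first Mt2 library, Clec4g was at -1.30 (edgeR adjusted p = 0.0772), Stab2 at -2.12 and Vwf at -2.47, and without the second Clec4g was at -3.32. Pecam1 was at -0.68 (SE 0.21, edgeR adjusted p = 0.0145), under the fold threshold. Dnase1l3 at -0.17 (SE 0.55, edgeR adjusted p = 0.815) and Lyve1 at -0.32 (SE 0.73, edgeR adjusted p = 0.731) were not called. Dnase1l3 ran from -0.85 without the third CD11b+ library to 0.91 without the first Mt2 library, and Lyve1 from -1.17 without the second CD11b+ library to 0.15 without the third.

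**Figure D5:**
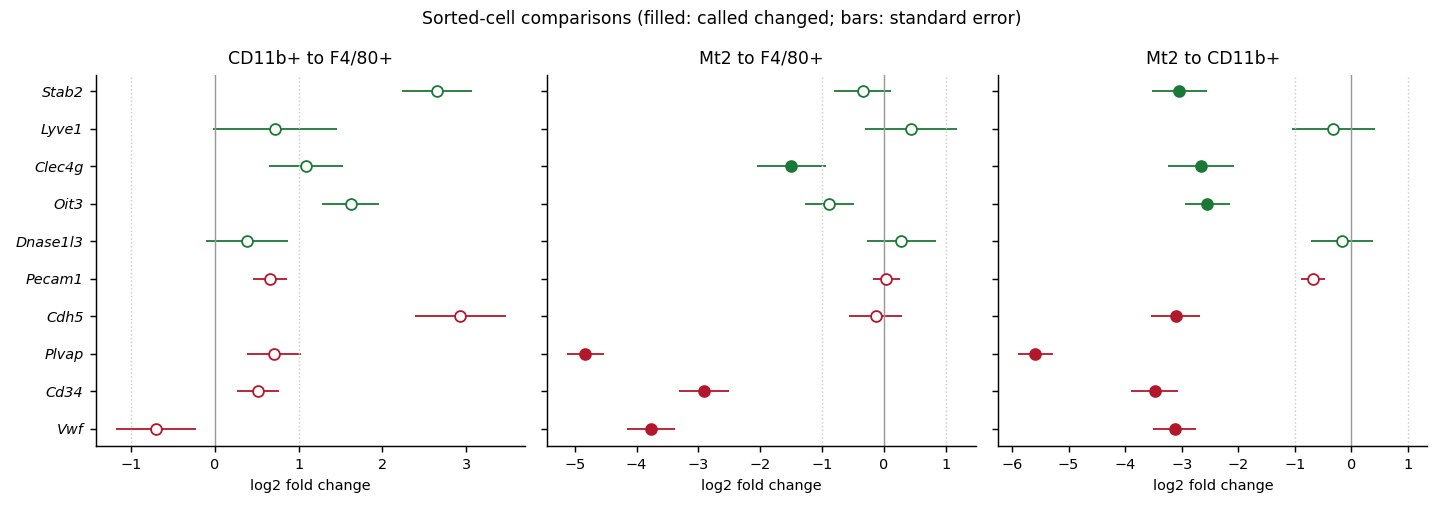
Log2 fold changes with standard errors of the 10 genes from CD11b+ to F4/80+ cells and from Mt2 tumors to each population (edgeR, TMM scaling). Filled points were called changed, dotted lines mark a 2-fold change, and green and red mark sinusoidal and other vessel genes. In F4/80+ cells Plvap, Vwf and Cd34 lie at -4.83, -3.77 and -2.91 while Cdh5 and Pecam1 lie at -0.13 and 0.04.

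Read ratios were compared between the sorted cells and the tissue. Cdh5 had 30.3, 23.2 and 14.9 reads per Plvap read in F4/80+ cells and 5.29, 8.42 and 2.14 in CD11b+ cells, against 0.901 and 0.957 in Mt2. Vwf had 0.00618, 0.0462 and 0.032 reads per Cdh5 read in F4/80+ cells, 0.243, 0.191 and 0.583 in CD11b+ cells, and 0.312 and 0.209 in Mt2. Only the F4/80+ values lay below both Mt2 libraries throughout. Oit3 had 0.794 to 1.06 reads per Gpr182 read in the 6 sorted libraries, within the 0.511 to 1.1 of the tissue. Stab2 was above its tissue ratio to Gpr182 in F4/80+ cells (4.2, 2.57 and 2.81 against 1.23 to 1.78), and in CD11b+ cells it was within, above and below it (1.42, 2 and 0.857). Dnase1l3 exceeded it in all 6 sorted libraries, at 3.54, 4.52 and 4.29 reads per Gpr182 read in F4/80+ cells and 6.47, 4.07 and 18.5 in CD11b+ cells, against 0.577 to 1.44 in the tissue.

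Genes of Kupffer cells, the macrophages that lie in the sinusoids, were compared between the populations as well. All 7 Kupffer cell genes were higher in F4/80+ than in CD11b+ cells without overlap (15.1% of all genes), with a median log2 fold change of 3.34. By edgeR's quasi-likelihood test 0 of the 7 were called, where 0.0771% of all genes were. Their summed level ran from 683 to 2675 CPM in F4/80+ and from 64.6 to 146 CPM in CD11b+ cells. Clec4f, a lectin of Kupffer cells, had 20668, 7824 and 4782 reads in F4/80+ cells and 561, 854 and 161 in CD11b+ cells, in the library order of Cdh5, Stab2 and Lyve1 within both populations. Oit3, Clec4g, Dnase1l3, Pecam1, Cd34 and Vwf did not follow that order and were highest in the second F4/80+ library. Cdh5 had 0.0939, 0.124 and 0.131 reads per Clec4f read in F4/80+ cells and 0.264, 0.326 and 0.373 in CD11b+ cells. The 10 hepatocyte genes tested had a median of 1.21 between the populations, with 6 higher in F4/80+ cells without overlap. The part of Kupffer cells, hepatocyte RNA or endothelial cells carried along in the sort was not tested. Of the other lists, 12 of 18 pan-endothelial genes and 8 of 13 other sinusoidal genes were higher in F4/80+ cells without overlap. Their medians were 1.13 and 1.19, against a median of -0.00 for all genes. In edgeR's quasi-likelihood test, 0 genes of these lists and 0 of the hepatocyte genes were called.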

How the data were processed

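RNA-Sequencing libraries of 14 tissue samples and 6 samples of sorted cells were analysed. The authors deposited raw counts of reads per gene, without normalization, in 1 table for each kind of sample. Per the labels, the submitters' processing notes name CASAVA, HISAT2 2.0.5, featureCounts 1.5.0-p3 and GRCm38 (mm10). The library preparation is named in the labels, and a strand setting of the counting is not given in the sources used here. The table of sorted cells holds no gene names, so genes were matched by Ensembl identifier, and 0 columns were left unmapped. GENCODE vM21 gave the exon overlaps.

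Counts were tested in R 4.3.3 with edgeR 4.0.16 (TMM, filterByExpr, quasi-likelihood F test, Benjamini-Hochberg adjustment over all genes). The call needed both an adjusted p no higher than 0.05 and a log2 fold change no smaller than 1 in size. The tissue was fitted as 13 samples in 7 groups, with Ht_1 and Ht_3 summed, the sorted cells as 6 libraries, and both together as 19 samples in 9 groups. Each SE comes from the log2 fold change and its F. CPM values were TMM-scaled over all 20 libraries, FPKM used the deposited lengths, and scores used a pseudocount of 1. A fold change is not relative to the median of all genes unless stated. The scripts were tested on simulated data. Floors of 3 counts cover counting error only.

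The 10 genes, the marker lists and the tests were chosen with earlier results of these data known. The genes named are the 10 members in every comparison, at most 3 genes of each other list with the largest change in a comparison, and the 5 genes most like each mean profile (Pearson r, mean log2 CPM of at least 1). The lists were of sinusoidal, pan-endothelial, sprouting, large-vessel and lymphatic endothelium, hepatocytes, Kupffer cells, macrophages, platelets, neutrophils, fibroblasts, stellate cells, mast cells and T cells. Col3a1 and Apln were named in full after values were seen. The other sprouting genes and Stab1, Maf, Mrc1, Fcgr2b and Bmp2 were then added too, and the gene pairs of the read ratios chosen. The alternatives were DESeq2 1.42.0, total-count scaling, DESeq2 size factors, other filters (no filter, or 10 counts in every library), no fold threshold, a fit of only the groups compared, Ht as 3 libraries or without Ht_3, pseudocounts of 0.1 and 5, the replicate number as a block, and each replicate left out.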

Additional observations from a re-analysis of the deposited data

How the results depend on the processing

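The limits are small groups (2 samples in most), sorted-cell replicates whose independence is not stated, and depth that leaves Vwf at 12 to 53 reads in the sorted libraries. Of 800 values of members' log2 fold changes under alternatives, 709 kept direction and side of the threshold, 22 fell under it, 18 passed it and 51 turned sign, and the cause was not tested. With total-count scaling, con to Ht was 0.65 for Pecam1, 1.14 for Cdh5, 0.15 for Plvap and 1.13 for Vwf (the ratios of mean CPM gave the same values), Lt to Ht was 0.39 for Pecam1, 0.82 for Cdh5 and 0.30 for Vwf, con to Lt was 0.26 for Pecam1, and the calls of all genes were 8297 from Lt to Ht and 6 between the sorted cells. With DESeq2, con to Lt was -0.04 for Cdh5 and Plvap, Lt to Ht was 0.02 for Cdh5 (the same with its size factors in edgeR), and 300 genes and 3 members were called between the sorted cells. With 10 counts in every library, fewer genes were tested, calls were 1154 from con to Lt, 5 between the sorted cells, 3742 from Mt2 to F4/80+ and 3870 from Mt2 to CD11b+, and Pecam1 was 0.02 from con to Lt and -0.01 from Mt2 to F4/80+, Cdh5 0.08 from con to Ht and 0.01 from Lt to Ht, and Vwf 0.07 from con to Ht. With no filter, 2 members were called from con to Lt and 3 between the sorted cells, with 242 genes, Cdh5 was 0.07 from con to Ht and 0.05 from Lt to Ht, and Vwf 0.06 from con to Ht. Fitting only the groups compared gave Cdh5 -0.02 and Plvap -0.01 from con to Lt and Cdh5 0.01 from con to Ht. With a pseudocount of 5 the score difference was -1.16 from con to Lt, -3.56 from con to Ht and -2.40 from Lt to Ht, against -1.39, -4.32 and -2.93.

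Same-numbered samples share only a number (r of their deviations from -0.123 to 0.105). With the replicate number as a block, 2 members and 78 genes were called between the sorted cells, 7 members from con to Ht and 3 from Mt2 to F4/80+, where Stab2 was 0.02 and Cdh5 0.20. With exchanged numbers from con to Lt, chosen after the data were seen, 1956 genes and 1 member were called. Leaving out each replicate, called members ran from 1 to 2 (con to Lt), 6 to 7 (con to Ht), 4 to 6 (Lt to Ht, 4 without the first Lt library, Ht_2 or the sample made of Ht_1 and Ht_3), 0 to 2 (sorted cells, 2 without the third CD11b+ library), 3 to 5 (Mt2 to F4/80+) and 6 to 7 (Mt2 to CD11b+). Called genes ran from 735 (without the second con library) to 2284 from con to Lt, with 918 without the second Lt and 1428 without the first con library. They ran from 2786 (without the first Lt library) to 5960 from Lt to Ht, and from 0 (without the second CD11b+ or the first or second F4/80+ library) to 136 between the sorted cells. Log2 fold changes that turned sign ran, from con to Lt, from -0.13 to 0.16 for Plvap, -0.26 to 0.25 for Pecam1, -2.09 to 0.16 for Lyve1 and -0.07 to 0.11 for Cdh5. From con to Ht they ran from -0.22 to 0.04 for Vwf and -0.17 to 0.05 for Cdh5, and between the sorted cells from -0.06 to 1.59 for Lyve1. From Mt2 to F4/80+ they ran from -0.34 to 0.78 for Lyve1, -0.05 to 0.25 for Pecam1, -0.29 to 1.36 for Dnase1l3, -0.71 to 0.22 for Cdh5 and -0.86 to 0.58 for Stab2. From Mt2 to CD11b+ they ran from -0.85 to 0.91 for Dnase1l3 and -1.17 to 0.15 for Lyve1.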

Other observations

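Stellate cells are the pericytes of the sinusoid. Of 6 stellate cell genes, 5 were called lower from con to Ht by edgeR's quasi-likelihood test, where 24.1% of all genes were (median log2 fold change -1.79), with Colec11 at -3.59, the matrix gene Reln at -3.31 and Rgs5 at -2.09, and their summed level ran from 265 to 325 CPM in con and from 47.6 to 63.7 CPM in Ht. Of 7 Kupffer cell genes, 4 were called lower (median -1.77), with Clec4f at -2.34, Fcna at -2.23 and Vsig4 at -1.77, whereas 6 of 7 macrophage genes were called higher, where 25.8% of all genes were (median 2.40). From con to Lt all 7 Kupffer cell genes were higher without overlap (37.2% of all genes), most of all Marco (log2 fold change 2.43, edgeR adjusted p = 0.11), and Clec4f was at 203 and 164 CPM in con, 344 in L-con, and 305 and 268 in Lt. For the platelet genes, which share Vwf and Pecam1 with endothelium, 1 of the 3 tested was called lower from con to Ht, and their summed level was 4.76 to 5.61 CPM in con and 2.81 to 3.85 CPM in Ht. Of 8 neutrophil genes 3 were called higher from con to Ht, as were 5 of 7 fibroblast genes, 1 of 2 mast cell genes and 2 of 5 T cell genes, with medians of 2.16, 3.53, 2.66 and 1.60, again against 25.8% of all genes called higher.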
